A study of Mus musculus with 22 samples.

Results

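The translation initiation factors described here are the 53 genes of the deposited count table whose symbol opens with Eif and a digit from 1 to 6, out of 23453 gene rows; Eif2s3x and Eif2s3y, the X- and Y-linked genes for the gamma subunit of eIF2, were left out by the rule. The rule used symbols only and no measured value. Of the 53 genes, 51 had a read in at least 5 of the 22 cells and were compared between response types, and 2 (Eif3j1 and Eif4e1b) had no read in any cell. The 51 were sorted by role into 8 groups: start codon selection and subunit joining, eIF2 and other carriers of initiator tRNA, the exchange factor eIF2B, the eIF2 kinases, the eIF3 scaffold, the cap-binding, helicase and scaffold proteins of eIF4, the eIF4E-binding proteins, and eIF5A with eIF6.

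Initiation is the step at which most control of protein synthesis is exerted. The small ribosomal subunit, held by eIF1, eIF1A and the large eIF3 complex, receives the initiator tRNA from GTP-bound eIF2, is brought to the capped 5′ end of an mRNA by the cap-binding eIF4E, the scaffold eIF4G and the RNA helicase eIF4A, and scans to a start codon, where eIF5 and eIF5B complete the joining of the large subunit. A pair of switches governs the rate: phosphorylation of the eIF2 alpha subunit by the eIF2 kinases blocks the exchange factor eIF2B, and eIF4E-binding proteins, released from eIF4E when mTORC1 phosphorylates them, keep eIF4E from eIF4G. Astrocytes use the same machinery, and loss of eIF2B function is known to strike white matter and astrocytes in vanishing white matter disease.

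Single cortical astrocytes were compared by the calcium signal that EtOH (ethanol) evoked in them. Primary cultures were made from the cortex of C57BL/6 pups at postnatal day 0 to 1, treated with cytosine arabinoside for 12 h, deprived of serum for 24 h and loaded with the calcium dye Fluo-4 AM, so that all groups share these steps. The labels give 6 cells as S-type (a slow calcium increase and decay), 6 as T-type (a transient increase), 5 as M-type (a mixed waveform) and 5 as No Response (NR, no calcium increase above the threshold for a response), so NR cells were exposed to EtOH as well; each was drawn into a micropipette, and its mRNA was amplified as antisense RNA before sequencing. Cell numbers below follow the order of deposition and carry no pairing. The labels do not say from which pup or dish a cell came, nor how long after the exposure it was collected, although the study's methods describe more than 1 collection time, so types and times cannot be told apart. Each response type therefore counts as 1 sample: differences are given as ratios with the range obtained when each cell was left out in turn, and, with 1 sample a type, no test of a difference between types was run.

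Cells held 2937786 to 22131076 reads and 6319 to 13070 genes with a read. Astrocyte markers were read in every cell (8 of 10 in all 22, summed level 1051 to 8972 CPM, counts scaled to the total reads of a cell). Their median sum was 2278 CPM in T-type, 3824 in S-type, 3161 in M-type and 6535 in NR cells. Slc1a2, S100b and Gfap had 365, 171 and 1761 reads in T-type against 69943, 13769 and 25689 in NR cells. Only Sox9 had more in T-type (59964 against 41604). The 15 microglial markers summed to at most 249 CPM (NR cell 4) and the 7 mural and fibroblast markers reached 7410.4 CPM (S-type cell 5). S-type reads of the latter list were 173943 on Acta2 and 4753 on Col1a2, with at most 682 on each other gene. The 8 oligodendrocyte lineage markers reached 3329 CPM in T-type cell 3 and the 6 neuronal ones 2076 CPM in S-type cell 2, the highest cells for Eif2b4 and Eif4g3 and for Eif4e and Eif4g1, and their part in the results below was not tested. Counts were divided by a size factor per cell, the median ratio to genes read in every cell, which gives normalized counts. T-type cells 2 and 3 stood apart, with size factors of 0.276 and 0.183 against 0.548 to 2.31 in the other 20, and T-type cell 2 held 12564138 reads on only 6319 genes. Initiation factor results that rest on these libraries are given below with and without them.

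Initiation factor transcripts took about 1% of the reads of an astrocyte, and the share varied most among T-type cells. The 53 genes held 0.880 to 1.03% of the reads of an S-type cell with a median of 0.993%, and 0.506 to 1.44% of those of a T-type cell with a median of 1.23%. M-type cells gave 1.07, 1.10, 1.02, 0.822 and 0.947%, and NR cells 0.939, 0.783, 0.715, 1.22 and 0.787%. The types overlapped. T-type cell 2 had the highest and T-type cell 3 the lowest share of all 22 cells, so these cells set both ends of the T-type range.

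**Figure D1:**
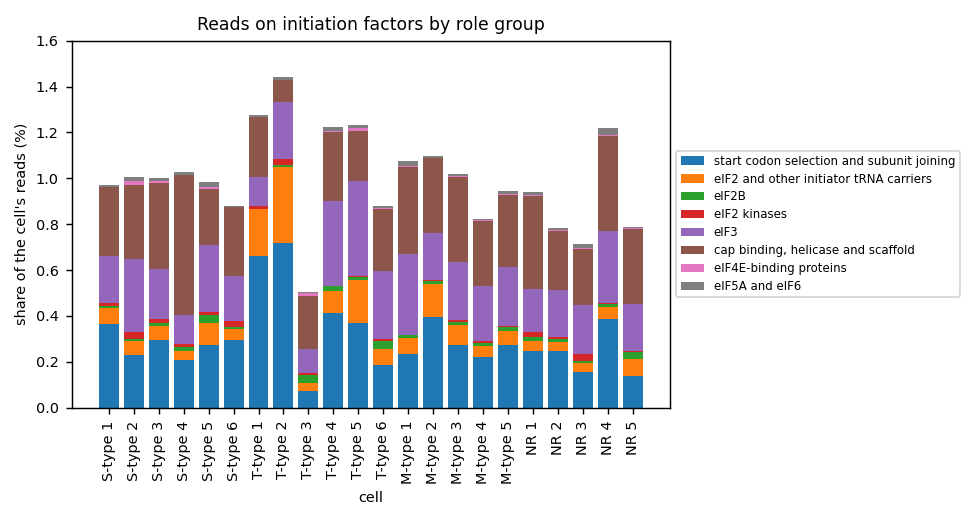
Stacked bars give the percent of each cell's reads on initiation factors, split by role group, for the 22 cells in order of response type and replicate. T-type bars run from 0.506 to 1.44%, and the brown section for cap binding, helicase and scaffold is shortest in T-type cell 2.

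The reads were spread unevenly over roles, and 3 roles held most of them. Start codon selection and subunit joining took 20.4 to 37.8% with a median of 28.7% of the initiation factor reads in S-type cells and 14.2 to 51.7% with a median of 31.8% in T-type cells. The eIF2 group took 7.15 to 23.2% with a median of 11.5% in T-type cells, against 3.79 to 9.95% with a median of 6.09% in S-type, 5.99 to 13.0% with a median of 6.39% in M-type and 4.15 to 9.25% with a median of 5.23% in NR cells. The cap-binding, helicase and scaffold group had its lowest median in T-type cells, with 6.64 to 46.0% with a median of 22.5%, against 24.9 to 59.3% with a median of 33.3% in S-type, 29.6 to 36.3% with a median of 34.1% in M-type and 33.1 to 43.1% with a median of 34.2% in NR cells. These are shares of a fixed sum, so a larger share of one role lowers that of the others.

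On a scale that corrects for transcript length (normalized counts per kilobase of annotated exon, mean over 22 cells), Eif5b, Eif1, Eif4g2, Eif2s2 and Eif1b were the most read initiation factors, at 2802, 2309, 2291, 1909 and 1626. Among the eIF3 subunits Eif3f led with 1604 per kilobase, and the eIF2B subunits ranged from 32.5 (Eif2b3) to 294 (Eif2b2). The eIF2 kinases lay below most others, from 20.0 (Eif2ak1) to 235 (Eif2ak2). 32 genes had a read in every cell, among them 12 subunits of eIF3. The number with a read was 40 to 49 per T-type cell and 44 to 51 per cell of the other types; with every cell thinned at random to the smallest library it was 36 to 46 and 43 to 51, and T-type cell 2 gave the lowest number both times.

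**Figure D2:**
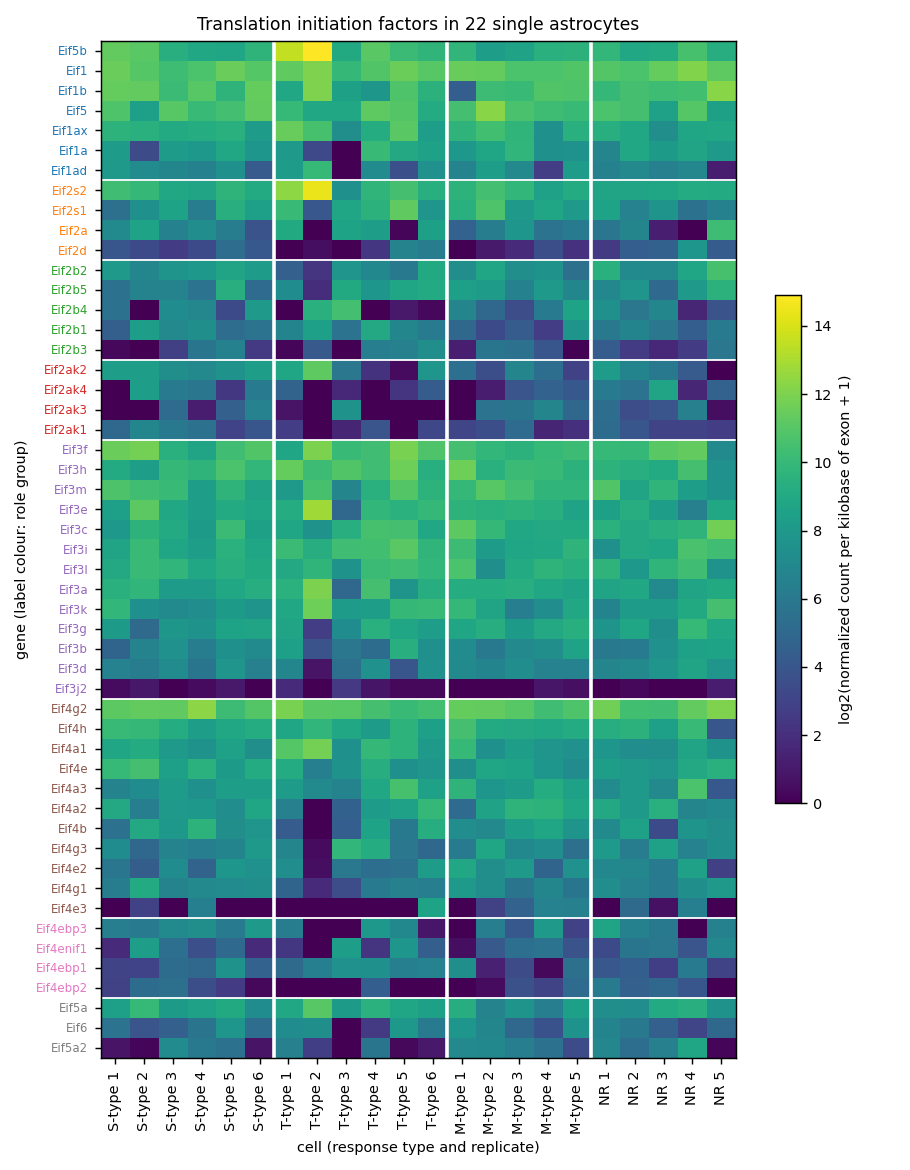
The heat map shows the level of the 51 compared initiation factors (rows, grouped by role) in each of the 22 cells (columns), as log2 of the normalized count per kilobase of exon plus 1. Eif1, Eif3f and Eif4g2 are bright in nearly all cells, the eIF2 kinase rows are dark and patchy, and Eif5b and Eif2s2 are brightest in T-type cells 1 and 2, while T-type cell 2 is darkest for Eif4a2, Eif4b, Eif4e2 and Eif3d.

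Of the 3 responding types, T-type had the most initiation factors at least 2-fold away from NR. It also had the largest share of all genes there, both higher and lower, so this rank is not particular to initiation factors. Of the 51 genes compared, 18 were at least 2-fold higher in T-type than in NR cells, where 28.6% of all 12719 genes compared were, and 7 were at least 2-fold lower, where 32.4% of all genes were. The initiation factors thus had 35.3% higher and 13.7% lower, the latter well under the share of all genes. Their median log2 ratio was 0.27, against -0.05 over all genes. Leaving out any 1 cell kept 10 of the 18 higher and 5 of the 7 lower genes beyond 2-fold, where 31.0% of the higher and 53.0% of the lower calls among all genes were kept. Without T-type cell 6, 11 were lower (35.0% of all genes). With each cell divided by its total count in place of the size factor, the split was 11 higher (19.3% of all genes) and 9 lower (37.9%), the median of the initiation factors was 0.02 and that of all genes -0.45, so the distance between both medians was 0.46 in place of 0.32. With the geometric mean over cells as the level of a type, which gives the highest cells less weight, the split was 10 higher (15.2% of all genes) and 19 lower (51.5%) and the median of the initiation factors -0.14, against -1.08 over all genes. Without T-type cells 2 and 3, 13 were higher (24.3% of all genes) and 9 lower (35.9%).

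The T-type versus S-type comparison uses the same T-type cells and gave 19 genes at least 2-fold higher (26.0% of all genes) and 5 at least 2-fold lower (32.2%). The median log2 ratio of the initiation factors was 0.66 and that of all genes -0.07. Of all genes called in this comparison 25.5% of the higher and 59.2% of the lower ones kept their call whichever cell was left out. Among initiation factors 3 of the 19 higher genes, Eif2s2, Eif5b and Eif4a1, and 4 of the 5 lower ones, Eif2ak4, Eif2ak1, Eif4ebp2 and Eif4g1, stayed beyond 2-fold whichever single cell was left out. Without T-type cell 4 or T-type cell 6, 8 were lower (36.0% and 35.1% of all genes). Scaling by total count gave 7 higher (16.7% of all genes) and 8 lower (37.8%), with medians of 0.10 for the initiation factors and -0.44 for all genes, and geometric means gave -0.42 and -1.24.

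In S-type and M-type cells fewer initiation factors than genes at large lay 2-fold or more from NR. In S-type against NR cells, 3 initiation factors were at least 2-fold higher (25.1% of all genes) and 4 at least 2-fold lower (22.4%), and the median log2 ratio was 0.23 against 0.03. Scaling by total count turned this split to 4 higher (23.6% of all genes) and 2 lower (21.3%), and TMM factors to 2 (23.6%) and 7 (24.2%). In M-type against NR cells, 2 (Eif2s1 and Eif6) were higher (19.8% of all genes) and 7 lower (28.1%), with equal medians of -0.20. TMM factors gave 4 (21.3%) and 7 (27.0%). Single cells weighed heavily on these small counts: over left-out cells the S-type counts ran from 3 to 7 higher and 3 to 9 lower (most without NR cell 1), and the M-type counts from 2 to 11 higher (most without NR cell 4) and 5 to 9 lower. The 3 comparisons against NR share the same 5 NR cells. The lower initiation factors were Eif2b2, Eif2d, Eif3c and Eif5a2 in S-type and Eif2a, Eif2ak2, Eif2ak4, Eif2b2, Eif2d, Eif4ebp2 and Eif4enif1 in M-type cells, and the higher ones in S-type Eif2ak1, Eif2ak2 and Eif4ebp1. Of the genes compared, 62.7% of the initiation factors and 28.9% of all genes had a read in every cell, and the part of this difference in the smaller shares was not tested.

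No initiation factor separated the types cell by cell, and very few of all genes did, so this is not particular to initiation factors. In none of the 4 comparisons did every cell of one type lie above every cell of the other for any of the 51 genes, an arrangement that 0.991% of all genes had for T-type versus NR, 0.409% for S-type versus NR, 0.598% for M-type versus NR and 0.771% for T-type versus S-type. T-type had the highest of the 4 type levels for 25 of the 51 genes (49.0%, against 31.9% of all genes), for 18 when scaled by total count (21.6% of all genes) and again for 25 without T-type cells 2 and 3; S-type had it for 6 (11.8%, against 24.5% of all genes). The cells of a type scattered widely: the median coefficient of variation over cells was 74.8% in NR, 63.4% in S-type, 74.1% in M-type and 108% in T-type cells. Over all genes it was 113, 109, 102 and 157%, in the same order of types.

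**Figure D3:**
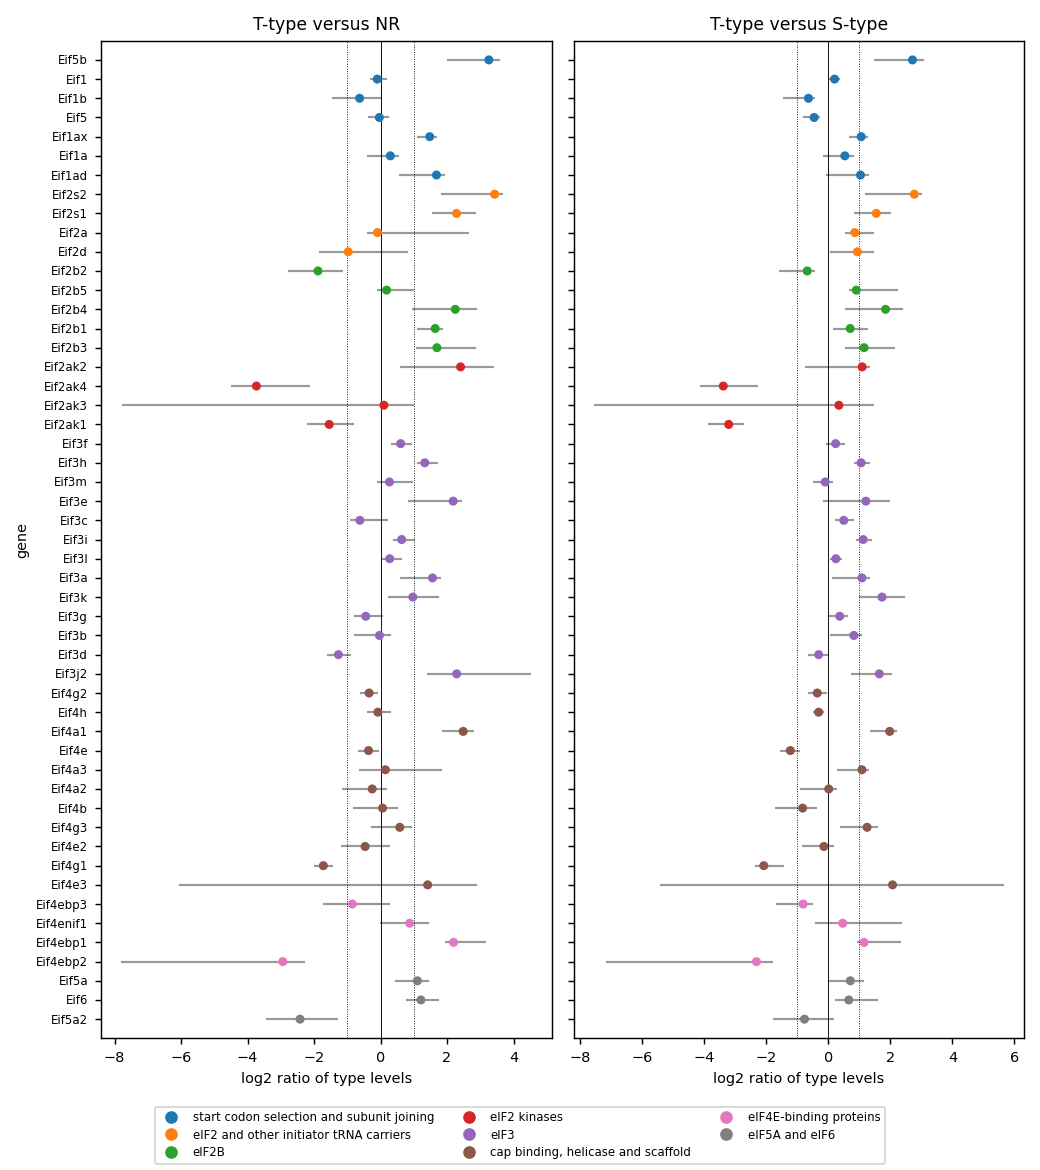
Points give the log2 ratio of type levels of each compared initiation factor for T-type versus NR (left) and T-type versus S-type (right), coloured by role, and grey lines the range when each cell was left out in turn; dotted lines mark 2-fold. Eif2s2, Eif5b and Eif4a1 lie right of 2-fold with their whole range in both panels, Eif2ak4, Eif4ebp2 and Eif4g1 left of it, and the longest lines belong to Eif4e3, Eif4ebp2 and Eif2ak3.

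In the group for start codon selection and subunit joining, 3 of 7 genes were at least 2-fold higher in T-type than in NR cells (Eif5b, Eif1ad and Eif1ax) and none lower, while scaling by total count gave 1 higher and 1 lower per cell and 2 and 1 per type. Of all genes, 28.6% were higher and 32.4% lower, which is also the background for each later T-type versus NR count. Scaled by total count these shares were 19.3% and 37.9% per cell and 18.6% and 40.3% per type. Eif5b, the GTPase that joins the subunits at the start codon, had the highest level per kilobase of the group. It lay at 5073 to 299253 with a median of 16114 normalized counts in T-type and 4403 to 24768 with a median of 7371 in S-type cells, and at 8862, 3103, 3767, 6866 and 7553 in the M-type and 9188, 4848, 5331, 14774 and 5994 in the NR cells. T-type cells 1 and 2 stood far above all others, while the lowest T-type cell lay within the NR cells. The log2 ratio to NR was 3.26, from 2.01 to 3.60 over left-out cells, and that to S-type 2.71, from 1.46 to 3.08. T-type cell 2 alone held 49.8% of the normalized counts of Eif5b in the 22 cells. In CPM, a scale free of the size factor, its T-type cells 1 and 2 had 5289.8 and 6568 CPM and the NR cells 759, 481, 492, 1311 and 366 CPM, and the log2 ratio to NR was 1.93. Of the exon bases of Eif5b, 16.9% are also annotated to other genes, chiefly Rev1.

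Eif1ax, the X-linked gene for eIF1A, which keeps the scanning ribosome open, was higher in T-type than in NR cells by 1.48 on the log2 scale (1.09 to 1.71 over left-out cells), from type levels of 6624 and 2377 normalized counts. Eif1ad, a gene for a protein with an eIF1A-like domain, gave 1.68, and 0.56 without T-type cell 2. Eif1 guards the choice of start codon. Its type levels were 5439.8 in NR, 4410.1 in S-type, 4488 in M-type and 5080 in T-type cells, and all 4 log2 ratios lay between -0.30 and 0.20. Eif5, the GTPase-activating partner of eIF2, was at 13865 in M-type and 7934 in NR cells, with 1 M-type cell at 32878.

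Among the eIF2 genes, the beta subunit gene Eif2s2 and the alpha subunit gene Eif2s1 were both at least 2-fold higher in T-type than in NR cells. Eif2s2 had the largest T-type to NR ratio of all initiation factors. Its normalized counts in NR cells were tightly grouped at 2864, 2826, 2933, 3815 and 3745, and in M-type cells they were 5288, 9534, 6333, 2472 and 3874. S-type cells had 2785 to 8813 with a median of 4658 and T-type cells 1189 to 152107 with a median of 7942. Of the T-type cells 5 lay above every NR cell and T-type cell 3 below all of them, which is the only overlap. The log2 ratio was 3.43 (1.82 to 3.69 over left-out cells), 2.12 without T-type cells 2 and 3, and 2.05 in CPM; T-type cell 2 held 53.6% of the normalized counts of Eif2s2 in all cells. The 93140 T-type and 24196 NR reads of Eif2s2 have exact Poisson 95% intervals of 92543 to 93740.1 and 23892 to 24503, which cover counting error only, since amplified reads are not independent molecules; the spread over cells was far larger.

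Eif2s1, which carries the serine that the eIF2 kinases phosphorylate, was higher than in NR cells in both T-type and M-type cells. NR cells had 1998, 487, 1055, 226 and 463 normalized counts, M-type cells 3426, 8958, 1321, 2183 and 1281, T-type cells 76.2 to 12253 with a median of 2939 and S-type cells 222 to 3348 with a median of 1278. The log2 ratio to NR was 2.28 in T-type (1.56 to 2.88) and 2.02 in M-type cells (1.28 to 2.62), and only NR cell 1 lay among the M-type cells. T-type cell 2, where Eif2s2 was highest, had the lowest Eif2s1 of all cells, 76.2. Eif2d, which can deliver initiator tRNA without eIF2, was lower in M-type than in NR cells: its 5 cells had 0, 8.40, 18.8, 81.4 and 24.6 and the NR cells 35.2, 155.98, 171.9, 1673 and 139, a log2 ratio of -4.03 (-5.07 to -2.24), and -2.24 without NR cell 4. Eif2a, another tRNA carrier, gave -1.65 but 1.11 without NR cell 5, which held 28.8% of its normalized counts.

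**Figure D4:**
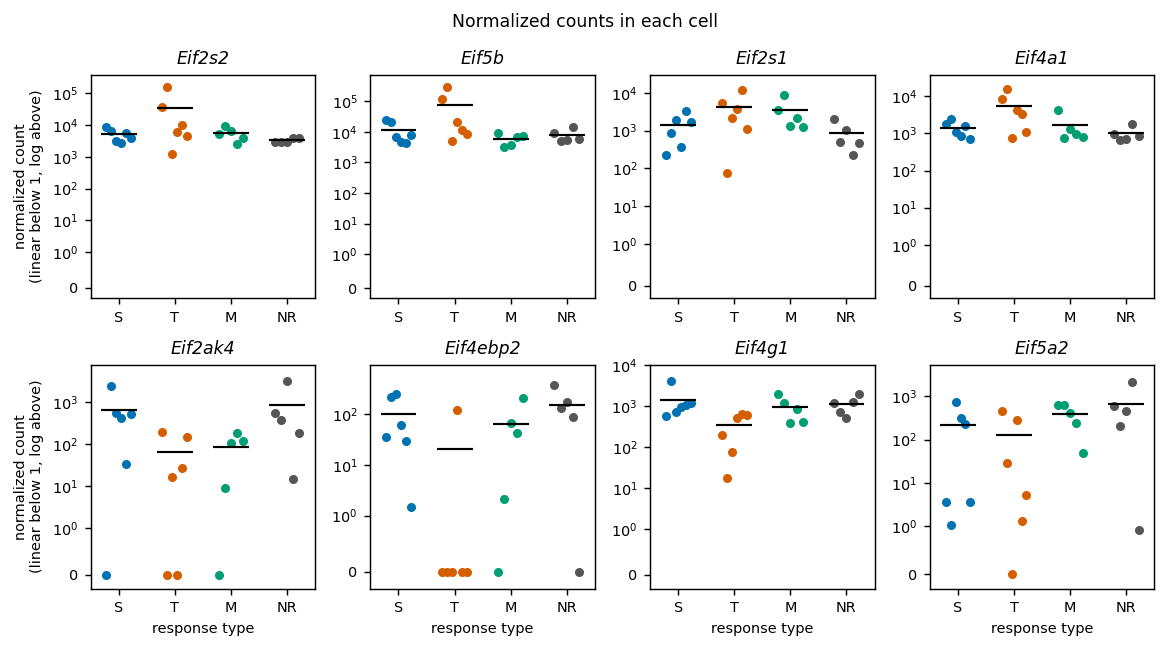
Each point is the normalized count of 1 cell for 8 initiation factors by response type (S, T, M and NR), on an axis that is linear below 1 and logarithmic above; horizontal bars mark the type level, the mean over its cells. The T-type bars of Eif2s2, Eif5b and Eif4a1 are pulled up by the highest cells, and 5 of 6 T-type cells sit at 0 for Eif4ebp2.

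The eIF2B subunits differed in direction. Of the 5 subunit genes 3 (Eif2b1, Eif2b3 and Eif2b4) were at least 2-fold higher and 1 (Eif2b2) lower in T-type than in NR cells. Counts pooled over a type and scaled by its total gave 1 and 1, with a median of 0.24 in place of 1.64. Eif2b2, the gene for the beta subunit of the regulatory core, was lower than in NR in all 3 responding types: the log2 ratio was -1.88 for T-type (-2.78 to -1.14), -1.21 for S-type (-1.46 to -0.46) and -1.54 for M-type (-2.04 to -0.79); the comparisons share the NR cells, which had 1319.8, 268, 246, 815 and 2910.0, and NR cell 5 was the highest of all. Eif2b5, the catalytic subunit, had type levels of 728 in NR, 441 in S-type, 569.8 in M-type and 826 in T-type cells, and none of its 4 ratios reached 2-fold. Eif2b4, chosen after its values were seen, was read in 4 of 6 T-type cells, where T-type cells 2 and 3 had 1817 and 3567 and the rest at most 2.59. Its ratio of 2.25 thus rests on these 2 libraries, and was 0.94 without T-type cell 3 alone. That cell had the highest summed CPM of the oligodendrocyte lineage markers, whose part in this value was not tested.

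The 4 eIF2 kinases, each of which phosphorylates eIF2 alpha on a different stress, differed in direction in T-type against NR cells, with 1 at least 2-fold higher and 2 lower (0 and 2 when scaled by total count). Eif2ak4 (GCN2, the sensor of amino acid shortage) was at 0 to 193 with a median of 21.8 normalized counts in T-type cells, at 0, 9.10, 108, 181.6 and 119 in M-type, at 535, 370.4, 3109, 15.0 and 186.3 in NR and at 0 to 2454 with a median of 467 in S-type cells. Its level was thus low in T-type and M-type cells. The log2 ratio to NR was -3.74 for T-type (-4.49 to -2.13) and -3.33 for M-type (-3.83 to -1.73), and NR cell 3 alone held 73.8% of the NR level. Eif2ak1 (HRI, the heme-regulated kinase) was lower in T-type than in S-type cells by 3.21 on the log2 scale, with T-type cells at 0 to 82.1 with a median of 20.9 and S-type cells at 40.0 to 648 with a median of 221, and higher in S-type than in NR cells (1.66, 1.16 to 2.41). Eif2ak2 (PKR, the kinase activated by double-stranded RNA), the highest of the kinases per kilobase, gave 2.41 in T-type against NR. T-type cell 2 supplied 76.5% of that T-type level, without which the ratio was 0.58, and against S-type it turned from 1.09 to -0.73. Eif2ak3 (PERK, the kinase of the endoplasmic reticulum) had 99.6% of its T-type level in T-type cell 3 and a read in 2 of 6 T-type cells.

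Of the 14 eIF3 genes, 13 were compared between types. In T-type against NR cells 4 were at least 2-fold higher (Eif3a, Eif3e, Eif3h and Eif3j2) and 1 lower (Eif3d). Of all genes 28.6% were higher and 32.4% lower, and the call of Eif3j2 rests on only 27 reads in all cells. Against S-type, 11 of 13 had a ratio above 0, with a median of 0.83 against -0.07 over all genes. Scaled by total count per cell, Eif3f and Eif3l also fell below 0, where all genes had a median of -0.44. S-type and M-type were close to NR, with medians of 0.03 and 0.01 and 1 gene (Eif3c, in S-type) past 2-fold. Eif3e, with 2.18, had its highest cell in T-type cell 2 and gave 0.81 without it, and the subunits not called higher lay between -1.27 (Eif3d) and 2-fold. The median over eIF3 was 0.61 in T-type against NR and 0.02 in CPM, where all genes had -0.45. Eif3a, the largest scaffold subunit, had 262 to 35323 with a median of 5858 normalized counts in T-type cells and 3655, 4110.0, 1202, 3707 and 4692 in NR cells. In normalized counts T-type cell 2 was the highest and T-type cell 3 the lowest of all 22. In CPM T-type cell 4 was the highest, with 1040 against 775 in T-type cell 2. The log2 ratio of 1.56 became 0.60 without T-type cell 2. Eif3h, chosen after its values were seen, was 1.33 higher (1.08 to 1.74) and stayed past 2-fold whichever cell was left out. For Eif3d, which can itself bind the cap, 43.3% of the exon bases are shared with other annotated genes, and its ratio of -1.27 ranged from -1.61 to -0.89.

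Within T-type cell 2 the subunits diverged: Eif3a and Eif3e stood at 35323 and 46442 normalized counts, while Eif3b, Eif3d and Eif3g, which belong to the same complex, stood at 43.5, 3.63 and 10.9. In the other 21 cells Eif3b was at 89.7 or more, Eif3d at 75.2 or more and Eif3g at 69.4 or more.

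The paralogs Eif3j1 and Eif3j2 encode a loosely bound subunit, for which there were too few reads to compare types. Eif3j1 had no read and Eif3j2 27 reads in 13 cells, of which 9 were in T-type and 4 in NR cells. In the annotation, 87.4% of the 75-base stretches of Eif3j2 also occur in other genes, above all in Eif3j1, and 47.3% of those of Eif3j1 occur elsewhere. The authors counted uniquely aligned reads, so the counts of this pair are uncertain.

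Among the cap-binding, helicase and scaffold genes, 2 of 11 were at least 2-fold higher (Eif4a1 and Eif4e3) and 1 lower (Eif4g1) in T-type than in NR cells, and none passed 2-fold in S-type or M-type against NR. Eif4a1 encodes the helicase that unwinds the mRNA leader. Its T-type cells had 758 to 15515 with a median of 3861 normalized counts, its S-type cells 711 to 2457 with a median of 1350.2, the M-type cells 4357, 765, 1348, 944 and 809 and the NR cells 972, 681, 705, 1788 and 879.8. Of the T-type cells 4 lay above every NR cell and T-type cells 3 and 6 within the NR range. The log2 ratio was 2.48 to NR (1.86 to 2.80) and 1.98 to S-type (1.35 to 2.21), 2.12 and 1.61 without T-type cells 2 and 3, and 1.57 and 1.11 in CPM. Eif4a1 and its paralog Eif4a2 are near-identical over parts of the helicase core, so the stretch around the DEAD box is shown for both, as it sets how far their reads can be told apart:
Eif4a1: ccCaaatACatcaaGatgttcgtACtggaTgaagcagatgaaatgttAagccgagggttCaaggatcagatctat
Eif4a2: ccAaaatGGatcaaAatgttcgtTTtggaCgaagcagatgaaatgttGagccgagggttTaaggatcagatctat
Both lines give 75 bases of 1 coding exon in the sense of the gene, from GRCm38 at chr11:69668677-69668751 (minus strand, Eif4a1) and chr16:23110236-23110310 (plus strand, Eif4a2). Capitals mark the 9 bases that differ, and bases 28 to 39 are the codons for the residues Asp-Glu-Ala-Asp that name the family. A read over this stretch can be placed, yet 25.4% of the 75-base stretches of Eif4a1 and 8.29% of those of Eif4a2 also occur in other annotated genes, for Eif4a1 chiefly in a pseudogene.

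The make-up of the helicase pair varied widely from cell to cell. As the share of Eif4a1 in the reads per kilobase of both paralogs, a quantity in which the size factor cancels, T-type cells had 20.9 to 100% with a median of 82.8% and S-type cells 26.4 to 87.5% with a median of 47.0%. M-type cells had 96.5, 31.7, 27.2, 21.3 and 28.8% and NR cells 30.7, 37.4, 18.6, 79.0 and 59.8%. Eif4a1 was the larger of the pair in 5 of 6 T-type, 2 of 6 S-type, 1 of 5 M-type and 2 of 5 NR cells. M-type cell 1 and T-type cell 6 went against the other cells of their types. Eif4a2 itself gave no ratio past 2-fold, with type levels of 1845 in NR, 1533 in S-type, 2683 in M-type and 1549.5 in T-type cells.

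Eif4g1, the main scaffold between cap and ribosome, had 18.1 to 643 with a median of 348 normalized counts in T-type cells, against 586 to 4057 with a median of 999 in S-type, 1917, 1189.7, 376, 835 and 405 in M-type and 1169.8, 704, 516, 1243 and 1929 in NR cells. No T-type cell lay above 643, and NR cell 3 was the only NR cell below that value. The log2 ratio was -1.72 to NR (-2.01 to -1.43) and -2.08 to S-type (-2.36 to -1.41); without T-type cells 2 and 3 it was -1.20 and -1.56. Eif4g2, a scaffold that lacks the eIF4E-binding part, held most of the scaffold reads everywhere, 68.4 to 99.9% per cell of the reads per kilobase of the 3 Eif4g genes. Its type levels were 25816 in NR, 25959.7 in S-type, 21135 in M-type and 20320.1 in T-type cells, so the largest difference was below 2-fold. The helicase cofactors Eif4b and Eif4h and the exon junction helicase Eif4a3 gave T-type to NR ratios of 0.06, -0.08 and 0.14. Eif4g3 was higher in T-type than S-type cells by 1.25, and by 0.38 without T-type cell 3.

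Eif4e, the cap-binding protein itself, was highest in S-type cells, with 1657 to 8835 with a median of 3896 normalized counts, against 508 to 3794 with a median of 1252 in T-type cells, 1034, 2620.2, 2394, 1374 and 875 in M-type and 1892, 1586, 1287, 3082 and 4312 in NR cells. Its T-type to S-type log2 ratio was -1.22 (-1.55 to -0.90), and its ratio to NR was -0.36 in T-type and 0.86 in S-type cells. Eif4e2, a cap-binding homolog linked to translational repression, took 1.34 to 44.7% with a median of 14.8% of the reads per kilobase of the 3 Eif4e genes in S-type and 0.569 to 32.6% with a median of 20.9% in T-type cells. In M-type cells that share was 73.4, 27.2, 37.4, 7.53 and 44.4%, and in NR cells 28.1, 28.7, 25.6, 37.6 and 0.837%. Eif4e3 was read in only 10 of 22 cells, and all of its T-type reads came from T-type cell 6 (986 normalized counts), so its ratio of 1.42 to NR has the opposite sign without that cell.

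Of the eIF4E-binding proteins, Eif4ebp1 was at least 2-fold higher and Eif4ebp2 at least 2-fold lower in T-type than in NR cells. Eif4ebp1, the binding protein most studied downstream of mTORC1, had 74.6 to 404 with a median of 202 normalized counts in T-type and 15.2 to 417 with a median of 62.1 in S-type cells, and 371, 3.50, 22.5, 0.519 and 98.5 in M-type and 33.4, 45.4, 12.9, 158 and 15.8 in NR cells. It was higher in T-type than NR cells by 2.20 (1.95 to 3.18), and in normalized counts the 4 NR cells other than NR cell 4 lay below every T-type cell. In CPM T-type cells 1 and 2, at 3.41 and 4.14, lay below NR cells 2 and 4, at 4.50 and 14.0. The rest of the T-type cells, at 15.2 CPM or more, lay above every NR cell. Eif4ebp2, the main form of brain, was read in 1 of 6 T-type cells, T-type cell 4 with 122 normalized counts, while S-type cells had 1.48 to 259 with a median of 49.3. M-type cells had 0, 2.10, 68.9, 43.1 and 208 and NR cells 385, 131, 179, 87.3 and 0. The log2 ratio was -2.94 to NR and -2.31 to S-type. It rests on 67 reads in T-type (exact Poisson 95% interval 51.9 to 85.1) and 1260 in NR cells (1191 to 1332); without T-type cell 4 the T-type level is 0, and a floor of 3 reads over the type puts the ratio to NR at -7.80 or below.

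As a share of the reads per kilobase of the 3 Eif4ebp genes, Eif4ebp1 took 29.9 to 100% with a median of 70.4% in T-type and 5.96 to 72.3% with a median of 12.1% in S-type cells. NR cells had 3.00, 15.3, 5.86, 82.6 and 7.31% and M-type cells 100, 1.88, 26.6, 0.0887 and 51.5%. All 6 T-type cells thus lay above 4 of 5 NR cells and 5 of 6 S-type cells. The exceptions were NR cell 4, with the most microglial marker reads, and S-type cell 5, with the most mural and fibroblast marker reads. NR cells 1 and 2 also had microglial marker reads, at 78.9 and 127 CPM, with Eif4ebp1 shares of 3.00 and 15.3%. Most S-type reads of the mural and fibroblast list were on Acta2. The part of these markers in this share was not tested. Eif4ebp3 shares 67.3% of its exon bases with other annotated genes, so its counts are uncertain and its share, the rest of the family, with them. Eif4enif1, the transporter that takes eIF4E into the nucleus, had type levels of 335 in NR, 445 in S-type, 156.3 in M-type and 614 in T-type cells.

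**Figure D5:**
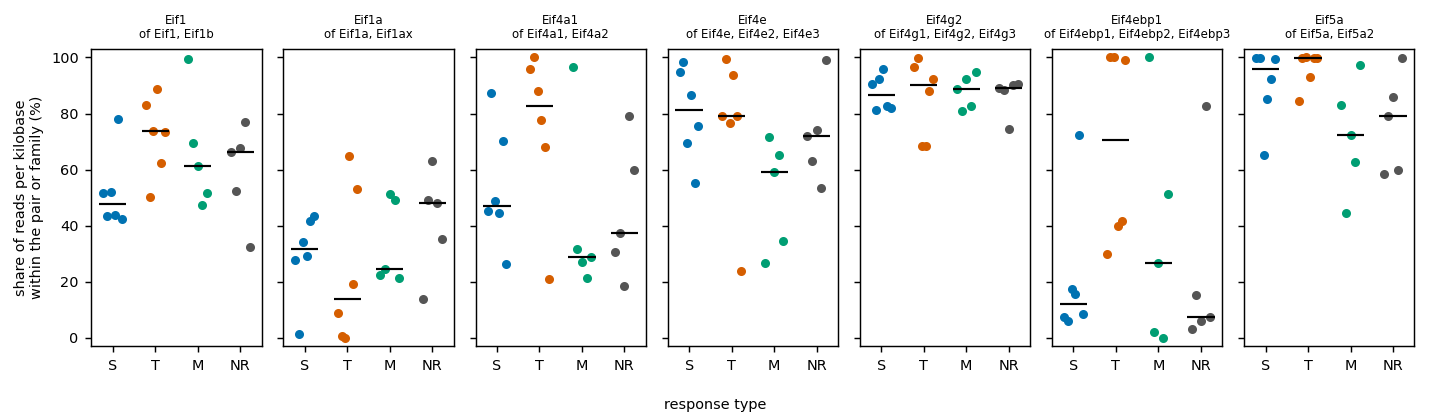
Points give, for each cell, the share of 1 gene in the reads per kilobase of its pair or family (percent, above each panel), by response type, and bars the median over cells. The T-type medians of Eif4a1 (82.8%) and Eif4ebp1 (70.4%) are the highest of the 4 types, with cells of every type overlapping.

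The paralog pairs of eIF1, eIF1A and eIF5A showed how one gene of a pair can lead in one cell and the other in the next. Eif1 took 50.2 to 88.7% with a median of 73.6% of the reads per kilobase of Eif1 and Eif1b in T-type and 42.5 to 77.9% with a median of 47.7% in S-type cells, and 66.2, 52.2, 67.8, 76.9 and 32.2% in NR cells. M-type cells had 99.3, 69.3, 61.3, 47.3 and 51.5%. Of the 75-base stretches of Eif1, 15.3% occur in other annotated genes. Eif1ax led Eif1a in 6 of 6 S-type, 4 of 6 T-type, 4 of 5 M-type and 4 of 5 NR cells. Eif1a had no read in T-type cell 3. Type levels of Eif1b were 2256 in NR, 2267 in S-type, 1323 in M-type and 1457 in T-type cells, and those of Eif1a were 1284 in NR, 1086 in S-type, 1619 in M-type and 1574 in T-type cells.

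Eif5a, the hypusine-bearing factor that helps ribosomes past difficult peptide bonds, was at least 2-fold higher in T-type than NR cells (1.11, 0.43 to 1.46), but 0.26 when scaled by total count, and its paralog Eif5a2 lower (-2.42, -3.45 to -1.29). Eif5a2 had 596, 207, 452, 2173 and 0.927 normalized counts in NR cells and 651, 627, 406, 245 and 48.4 in M-type cells, 0 to 453 with a median of 17.1 in T-type and 1.08 to 744 with a median of 117 in S-type cells. Each of T, S and NR held a cell with at most 1.08 normalized counts of Eif5a2, while every M-type cell had at least 48.4. Eif5a took 84.3 to 100% with a median of 99.7% of the reads per kilobase of the pair in T-type, 65.2 to 100.0% with a median of 95.8% in S-type, 82.9, 44.5, 72.4, 62.8 and 97.3% in M-type and 58.3, 79.0, 85.8, 59.7 and 99.9% in NR cells. Eif6, which keeps large subunits from joining too early, was higher than in NR cells in T-type (1.21, 0.76 to 1.76) and M-type cells (1.32, 0.91 to 1.87). In CPM its T-type cells had 18.5, 10.1, 0, 1.07, 54.3 and 15.7 and its NR cells 23.3, 17.5, 5.78, 1.86 and 4.98. Scaled by total count per cell the T-type difference was below 2-fold, and per type above it. In normalized counts its M-type cells had 617, 305, 86.7, 33.2 and 514 and its NR cells 282, 176.4, 62.6, 20.9 and 81.6, which overlap.

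Over the 22 cells the levels of initiation factors showed little correlation with each other. Between pairs of the 50 genes at a mean of at least 10 normalized counts, the median Spearman rho was 0.03, close to the 0.05 over pairs of all 11551 genes at that level. The 12 eIF3 subunits gave 0.15 and the 5 eIF2B subunits -0.01, whereas 75 cytosolic ribosomal protein genes gave 0.56. The closest pairs were Eif2s2 with Eif1ax (0.83) and with Eif4a1 (0.72), and Eif5b with Eif4a1 (0.71), all genes that were high in T-type cells 1 and 2. These values describe 22 cells that share library preparation within a cell and differ in depth, and no p is given.

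The other genes of the translation apparatus came from lists that hold none of the 53 genes. Of 77 cytosolic ribosomal protein genes compared, 48 were at least 2-fold higher and 0 lower in T-type than NR cells, with a median log2 ratio of 1.26 against 0.61 for eIF3 and -0.05 for all genes; scaled by total count the counts were 26 and 2 and the median 0.74, and without T-type cells 2 and 3 they were 44 and 1. Rpl7, with the most normalized counts, gave 0.90 and Rps18, the one with the largest T-type to NR ratio, 3.17 (1.94 without T-type cell 2). Of 9 elongation factors 4 were higher and 1 lower in T-type than NR cells: Eef1a1, which brings tRNA to the ribosome, gave 0.64, and Eef1a2 -2.14, which was 0.10 without NR cell 5. Scaled by total count, 1 elongation factor was higher and 1 lower. Among 7 termination and recycling factors 5 were higher and 1 lower (2 and 1 in pooled CPM), with 1.17 for the release factor Gspt1 (0.18 without T-type cell 3) and 2.46 for the recycling ATPase Abce1.

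All 5 poly(A)-binding protein genes and partners had ratios above 0 in T-type against NR cells, and 3 were at least 2-fold higher, where scaling by total count left 3 above 0 and 2 at least 2-fold higher. Pabpc1, the main poly(A)-binding protein, gave 1.49 (1.36 to 1.65 over left-out cells) and Paip2b 3.87 (1.40 without T-type cell 2). Of 12 genes of mTORC1, S6 kinase and MNK signalling, 3 were higher and 3 lower: the mTORC1 activator Rheb gave -0.26, and the mTOR inhibitor Deptor 7.01, which was 0.54 without T-type cell 3. Of 5 eIF2 phosphatase genes 3 were higher and 1 lower (0 and 1 in pooled CPM). The catalytic subunit genes Ppp1cb and Ppp1cc gave 1.39 (0.71 without T-type cell 2) and -1.93 (-0.052 without NR cell 4). The mitochondrial initiation factor Mtif2 gave 0.77, but -0.77 without T-type cell 3, and Mtif3 -1.07 (-2.75 to -0.15 over left-out cells).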

How the data were processed

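RNA of 22 single astrocytes (6 S-type, 6 T-type, 5 M-type, 5 NR) was amplified by the authors in repeated rounds of antisense RNA synthesis, made into stranded libraries (TruSeq mRNA kit, NextSeq 500 paired-end reads), trimmed and aligned to GRCm38 with STAR. The deposited values are raw counts: the authors counted uniquely aligned exonic reads with VERSE, a modified HTSeq (the submitters' processing notes name STAR, HTSeq, GRCm38 and mm10). Versions and the use of strand in counting are not given in the sources used here, so reads of overlapping or antisense genes cannot be told apart. Amplified reads are not independent molecules, and intervals (exact Poisson, 95%) cover counting error only; cells held 2937786 to 22131076 reads, and counts have no unique molecular identifiers described.

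Size factors, by the median of ratios over the 3670 genes that every cell had, scaled the cells. A type level is the mean over its cells, and where a type had no read of a gene, a floor of 3 reads took the place of 0. Genes seen in 5 or more cells were compared as log2 ratios of type levels, and 2-fold was the size counted. The study's methods used a Wald test over cells, which was not repeated here, because cells are not replicates of a condition. Alternatives were scaling by total count per cell (mean CPM) or per type (pooled CPM), TMM factors, median or geometric mean levels, a pseudocount of 1, other filters and leaving out each cell; leaving out T-type cells 2 and 3 together was chosen after seeing the data. Python 3.11.15, pandas 2.3.3, SciPy 1.17.1, R 4.3.3 and edgeR 4.0.16 (TMM factors only) were used, and ratios were tested on simulated data. Exon lengths, overlaps and sequences came from GRCm38 with GENCODE vM21. Paralog shares are counts per kilobase of exon; exon overlap and shared 75-base stretches were counted in the same annotation.

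The initiation factors and all lists were chosen with earlier results of these data known. Cell values are given for the gene with the most counts of each role, for paralog families and, per comparison, for the 3 largest ratios in each direction at a mean of at least 10 normalized counts; of each pathway list the gene with the most counts and the gene with the largest T-type to NR ratio are named. The values of Eif2ak3, Eif2b4, Eif3b, Eif3d, Eif3e, Eif3f, Eif3g, Eif3h, Eif4a3, Eif4b, Eif4h and Eif5 were chosen after they were seen.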

Additional observations from a re-analysis of the deposited data

Results flagged for a closer look

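14 of 100 groups of 5 or 6 cells held a cell beyond Dixon's critical value (0.710 for 5 cells and 0.625 for 6, as gap over range). For independent, normally distributed values chance gives about 1 in 20, or 5. The groups are the share of reads per role, the number of genes read and the paralog shares, which are not independent of each other. Many are bounded shares, some with zeros, so the 14 cannot be read as an excess over chance. For 2 of them, Eif4e3 in T-type cell 6 and Eif4ebp2 in T-type cell 4, a single cell held all reads of the gene, so the gap equals the range by construction.

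Cap-binding, helicase and scaffold genes gave 7 of them. In M-type cell 1 Eif4a1 held 96.5% of the reads per kilobase of Eif4a1 and Eif4a2, against 21.3 to 31.7% in the other M-type cells, and 44 initiation factors had a read there against 50 to 51. T-type cell 6 was the only T-type cell with Eif4e3, at 43.5% of the Eif4e family (0 in the others), and its Eif4e share was 23.9% against 76.7 to 99.4%. S-type cell 4 had 10.4% Eif4e3 against 0 to 0.432%, and 0.609% of its reads on the cap-binding, helicase and scaffold group against 0.245 to 0.377%. In NR cell 3 the scaffold family was 74.6% Eif4g2, against 88.3 to 90.6%, and 21.4% Eif4g3, against 3.52 to 6.79%.

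The eIF4E-binding proteins gave 3. Eif4ebp1 held 72.3% of its family in S-type cell 5, against 5.96 to 17.3% in the other S-type cells, and 82.6% in NR cell 4, against 3.00 to 15.3%. Eif4ebp2 held 4.77% in T-type cell 4 and 0 in the other 5. S-type cell 5 was also the highest of its type for the share of reads on eIF2B (0.0332% against 0.00562 to 0.0157%) and for the share of Eif1 over Eif1b (77.9% against 42.5 to 51.8%), and NR cell 4 for the share of reads on eIF3 (0.310% against 0.187 to 0.212%). These are the cells with the most mural and fibroblast (S-type cell 5) and microglial (NR cell 4) marker reads, whose part in these values was not tested. Most S-type reads of the mural and fibroblast list were on Acta2.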

How the results depend on the processing

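Each of the 24 summary values was recomputed under the alternatives, and 271 of 343 recomputed values stayed within the limits set. The limit was 1.5 times for a count of genes past 2-fold or not overlapping. For a median ratio it was the jackknife standard error, from leaving out each cell in turn. For a share of reads or a number of genes read it was the standard deviation over cells. The other 72 are given here or as ranges over left-out cells, and the cause was not tested. The difference between the median of the initiation factors and that of all genes was -0.05 to 0.94 for T-type versus NR (above 0 in 20 of 21 settings, the exception being no filter on low counts) and 0.40 to 0.90 for T-type versus S-type (above 0 in 22 of 22).

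Percents in brackets are the shares of all genes. With geometric mean levels, T-type versus NR had a median of -0.14, 10 higher (15.2%) and 19 lower (51.5%). T-type versus S-type had -0.42, 9 higher (10.8%) and 17 lower (54.4%). M-type versus NR had 0.16 and 11 higher (24.9%), and S-type versus NR 7 higher (28.5%). With medians over cells, T-type versus NR had 15 lower, T-type versus S-type a median of 0.20, 10 higher and 13 lower, M-type versus NR 0.050 and 8 higher, and S-type versus NR 6 higher. With pooled CPM, T-type versus NR had 11 higher (18.6%), T-type versus S-type a median of 0.11, 9 higher (16.4%) and 9 lower (39.9%), and M-type versus NR a median of 0.046. With mean CPM, T-type versus NR had 11 higher (19.3%), T-type versus S-type a median of 0.10, 7 higher (16.7%) and 8 lower (37.8%), and S-type versus NR 2 lower (21.3%). TMM factors gave 7 lower (24.2%) for S-type and 4 higher (21.3%) for M-type versus NR. Without T-type cells 2 and 3, 2 initiation factors (Eif2b4 and Eif2s2) did not overlap between T-type and NR, as for 2.74% of all genes. With a limit of 5 reads, 47.8 initiation factors were detected per S-type and 41.7 per T-type cell, and with thinned cells 47.8 per S-type cell.

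Over left-out cells, T-type versus NR ranged from a median of 0.12 (without NR cell 2) to 0.63 (without NR cell 4), from 14 to 21 higher, from 7 to 11 lower and from 0 to 1 not overlapping. Over the same left-out cells the shares of all genes ran from 25.8 to 32.4%, 30.3 to 35.8% and 1.27 to 2.29%. S-type versus NR ranged from 0.013 to 0.32 in the median, 3 to 7 higher, 3 to 9 lower and 0 to 1 not overlapping. The shares of all genes were 22.5 to 30.2%, 20.6 to 24.8% and 0.676 to 1.26%. M-type versus NR ranged from -0.21 to 0.13 (without NR cell 5), 2 to 11 higher (11 without NR cell 4), 5 to 9 lower and 0 to 3 not overlapping, and T-type versus S-type from 0.28 to 0.78, 14 to 22, 5 to 8 and 0 to 2. The mean share of reads ranged from 0.968 to 0.998% in S-type, 0.966 to 1.03% in M-type, 0.806 to 0.932% in NR and 1.02 to 1.21% in T-type cells.

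Log2 ratios of single genes changed sign as follows. For T-type versus NR, Eif4e3 was -1.21 (median over cells), -1.82 (geometric mean) and -6.06 to 2.89 over left-out cells (lowest without T-type cell 6, an upper bound from the floor), and Eif6 -0.12 (geometric mean). For S-type versus NR, Eif4ebp1 was -0.15 to 2.02 over left-out cells (lowest without S-type cell 5). For M-type versus NR, Eif2a was 0.26 (median), 1.92 (geometric mean) and -2.37 to 1.11 over left-out cells (highest without NR cell 5), and Eif2ak2 0.20 (geometric mean). For T-type versus S-type, Eif1ad was -0.048 (mean CPM), -0.89 (geometric mean) and -0.086 to 1.33 over left-out cells (lowest without T-type cell 2), Eif3a -0.020 (geometric mean), Eif4e3 -0.45 (geometric mean) and -5.41 to 5.66 over left-out cells (lowest without T-type cell 6, again a bound), and Eif4g3 -0.17 (pooled CPM), -0.30 (median) and -0.75 (geometric mean). Eif2ak2 was -0.18 (pooled CPM), -0.31 (mean CPM), -0.88 (median), -2.03 (geometric mean), -0.73 to 1.36 over left-out cells (lowest without T-type cell 2) and -0.54 (without T-type cells 2 and 3). No paired analysis was possible because cell numbers only follow the order of deposition and no test was run. Depth limits the genes with few reads, such as Eif3j2, Eif4e3 and Eif4ebp2.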
